A study of Homo sapiens with 22 samples.

Results

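The regions described here are binding sites of MTBP that the authors placed in their enhancer or super-enhancer class and that overlap none of the 2473 replication initiation zones in their zone list. By that rule 3441 of the 29848 MTBP peaks on chromosomes 1 to 22 and X were chosen (members, below), which is 65.5% of the peaks of that class. The 1816 peaks of the class that touch a zone are the closest comparison. The members were thus chosen by measured values, the class and the zone overlap, so neither is a finding.

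MTBP binding was mapped in DLD-1, an established line from a human colorectal adenocarcinoma, with CUT&RUN, in which an antibody brings a nuclease to its target and the DNA cut out around it is sequenced. One line carried MTBP-mAID/MTBP-deltaC-FLAG, with the C-terminally truncated protein (deltaC), and the other MTBP-mAID/MTBP-WT-FLAG, with the full-length protein (WT), with 3 libraries each. Both lines thus kept 1 MTBP allele fused to mAID, an auxin-inducible degron, and the labels do not say whether that protein was present or whether each line is a single clone. A FLAG control in MTBP-mAID/MTBP-mAID cells (3 libraries), an IgG control (2 libraries) and the H3K4me2 libraries (2, both of these in MTBP-mAID/MTBP-WT-FLAG cells) completed the CUT&RUN set. Initiation was followed by EdU-seq in released deltaC cells, released WT cells and WT cells held in G1 (3 libraries each), with 10 µM EdU for 3 hr and, after release, the fork-slowing drugs HU and aphidicolin. All 22 libraries came from the same cell line. The deposited lists hold 1 signal value a line for each peak, so no spread between libraries could be given and no difference below was tested.

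MTBP binds Treslin, and the pair helps to switch on the loaded MCM helicase at replication origins as cells enter S phase. Enhancers are regulatory DNA elements away from gene starts that raise the transcription of genes, and in active form they carry H3K4me2, dimethylation of lysine 4 of histone H3. In EdU-seq of cells slowed by HU and aphidicolin, label collects at the sites that fire earliest, and those that fire later in S phase are not marked.

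No genome sequence was used here, so the sequences shown are RefSeq promoter windows of GRCh38.p14, the assembly of hg38, that lie whole inside a chosen peak. Each window runs from 250 bases before a gene's start to 50 after it. Although the class is meant for distal sites, 89 such windows lay inside 78 of the 3441 peaks (2.27%), 40 at protein-coding genes and 49 at lncRNA genes. The 4 coding windows in the highest-scoring peaks are shown first, because they show start sites inside peaks of the enhancer class, and the 3 of SH3BP4 after them, because that gene holds one of the largest groups of peaks. These genes were chosen after their values were seen. Capitals mark matches on either strand to the GC box GGGCGG, to CCAAT and to the AP-1 element TGANTCA.
EVI5, chr1:92785059-92785358, minus strand: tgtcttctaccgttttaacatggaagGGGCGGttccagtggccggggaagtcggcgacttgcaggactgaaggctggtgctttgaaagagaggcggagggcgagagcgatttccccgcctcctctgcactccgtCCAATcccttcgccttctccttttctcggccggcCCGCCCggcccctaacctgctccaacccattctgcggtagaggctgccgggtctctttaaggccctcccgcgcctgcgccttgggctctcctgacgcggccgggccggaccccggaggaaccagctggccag
SOS1, chr2:39124819-39125118, minus strand: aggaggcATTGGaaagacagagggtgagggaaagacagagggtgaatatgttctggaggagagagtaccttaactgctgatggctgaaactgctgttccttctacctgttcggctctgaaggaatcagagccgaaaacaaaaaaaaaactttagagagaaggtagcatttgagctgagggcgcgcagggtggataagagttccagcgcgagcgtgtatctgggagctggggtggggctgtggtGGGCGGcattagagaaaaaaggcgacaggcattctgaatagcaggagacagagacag
TMCC1, chr3:129794563-129794862, minus strand: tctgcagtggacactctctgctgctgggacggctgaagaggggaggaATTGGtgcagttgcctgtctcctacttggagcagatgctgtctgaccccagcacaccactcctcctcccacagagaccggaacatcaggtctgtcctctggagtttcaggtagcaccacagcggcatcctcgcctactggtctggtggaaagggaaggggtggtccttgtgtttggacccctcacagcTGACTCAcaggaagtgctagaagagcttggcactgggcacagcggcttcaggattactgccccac
PIK3C2A, chr11:17207937-17208236, minus strand: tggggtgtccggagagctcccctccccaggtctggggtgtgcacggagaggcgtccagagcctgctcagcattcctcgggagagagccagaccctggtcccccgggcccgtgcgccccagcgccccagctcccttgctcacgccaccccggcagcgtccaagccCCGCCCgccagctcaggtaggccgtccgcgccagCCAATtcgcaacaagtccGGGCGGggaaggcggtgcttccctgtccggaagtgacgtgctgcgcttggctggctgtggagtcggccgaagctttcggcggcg
SH3BP4, chr2:234981124-234981423, plus strand: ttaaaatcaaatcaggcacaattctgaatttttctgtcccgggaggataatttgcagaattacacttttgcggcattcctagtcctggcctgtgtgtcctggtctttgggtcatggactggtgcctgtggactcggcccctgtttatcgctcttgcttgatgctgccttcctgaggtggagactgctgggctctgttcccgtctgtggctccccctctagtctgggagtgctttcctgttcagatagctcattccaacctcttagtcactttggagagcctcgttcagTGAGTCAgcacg
SH3BP4, chr2:235027485-235027784, plus strand: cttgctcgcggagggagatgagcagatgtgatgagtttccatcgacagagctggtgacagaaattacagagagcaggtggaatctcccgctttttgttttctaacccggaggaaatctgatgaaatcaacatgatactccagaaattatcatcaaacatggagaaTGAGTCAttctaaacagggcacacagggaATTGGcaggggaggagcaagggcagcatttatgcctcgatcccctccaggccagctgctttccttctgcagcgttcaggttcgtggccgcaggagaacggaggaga
SH3BP4, chr2:234965089-234965388, plus strand: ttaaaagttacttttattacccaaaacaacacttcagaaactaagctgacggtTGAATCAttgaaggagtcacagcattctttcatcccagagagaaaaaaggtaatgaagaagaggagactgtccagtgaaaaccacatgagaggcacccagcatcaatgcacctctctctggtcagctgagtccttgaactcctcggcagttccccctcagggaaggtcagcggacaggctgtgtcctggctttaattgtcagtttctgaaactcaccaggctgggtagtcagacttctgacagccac

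The windows differed in kind. EVI5 (a Rab GTPase-activating protein) and PIK3C2A (a class II phosphoinositide kinase) each held 2 GC boxes and 1 CCAAT match, at 65.3% and 71.3% G and C. SOS1, which loads Ras with GTP, held 1 of each at 51.0% G and C. TMCC1, an endoplasmic reticulum membrane protein, had 1 CCAAT and 1 AP-1 match, and each of the 3 windows of SH3BP4, a regulator of receptor trafficking, had 1 AP-1 match, the binding element of FOS and JUN dimers. The peak at EVI5 (chr1:92784732-92785780) had a deltaC signal of 389 and a WT signal of 784, with H3K4me2 27.7-fold over background. The peak at PIK3C2A (chr11:17207375-17209026) had 325 in deltaC and 639 in WT, with H3K4me2 at 43.9-fold, and lay 1165 kb from the nearest zone. The authors' own start-site annotation, promoter-TSS, was given to 22 of the 3441 peaks.

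Over all 89 windows, AP-1 matches were found in 24 (27.0%), against 7.68% of all 34961 promoter windows on these chromosomes. The share was 20.0% of the 40 coding windows, against 6.15% of all coding windows, and 32.7% of the 49 lncRNA windows, against 10.3% of all lncRNA windows. In windows inside enhancer-class peaks in zones it was 13.7% of 51, in those inside peaks of the class others outside zones 28.4% of 95, and in those inside promoter-class peaks outside zones 4.87% of 6508. Pooled over coding and lncRNA windows, the other motifs searched differed less from all windows. These were the GC box (41.6% against 45.0%), CCAAT (31.5% against 34.6%), the TATA box TATAAA (10.1% against 11.5%), the TEAD element GGAATG (16.9% against 14.04%), the CDX element TTTATG (12.4% against 10.6%) and the GATA element AGATAA (10.1% against 10.3%). Pooling hides that CCAAT was in 42.5% of the coding windows, against 34.6% of all coding ones, but in 22.4% of the lncRNA windows, against 34.4%. TATAAA was in 2.5% of the coding windows, against 9.46%, and in 16.3% of the lncRNA windows, against 15.1%. Of the 89 windows, 15 overlap another of them, so they are not independent, and a match is a run of letters and not a measured binding site.

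H3K4me2 at the members is described here, but it cannot check the class name, because promoter-class peaks carry it too. Of promoter-class peaks outside zones 99.6% overlapped an H3K4me2 peak, with a median fold enrichment of 28.1 and a median width of 2662 bp. Of the 3441 peaks, 3418 (99.3%) overlapped an H3K4me2 peak by at least 1 bp, against 98.9% of all MTBP peaks and 98.8% of enhancer-class peaks in zones. The strongest H3K4me2 peak under each had a median fold enrichment of 24.8 and a median width of 2474.5 bp, against 23.8 and 2352.5 bp for enhancer-class peaks in zones, while all H3K4me2 peaks had medians of 14.4 and 1408 bp. Above that median fold lay 2930 of them (85.7%). The lower quartile of the fold was also above it over all MTBP peaks (16.3) and in enhancer-class peaks in zones (16.8). A fold above that median was thus not particular to members. Most shared it with no other member, since 3147 different H3K4me2 peaks were the strongest under a member, and 233 of these held at least 2 members. Sharing with MTBP peaks that are not members was not counted. The summits of the MTBP and H3K4me2 peaks were a median of 190 bp apart, against 189.5 bp in zones and 336 bp for promoter-class peaks outside zones. The part that background CUT&RUN signal has in this overlap was not tested, since neither control was used.

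Among the 23 peaks without H3K4me2, those with the highest scores were 8.0 kb from GPX5, 39.0 kb from CYP2A7, 35.4 kb from RYBP (a Polycomb subunit), inside TBC1D22A and inside TKFC. Their scores were 324, 289, 255, 201 and 160. The score is the authors' own, on a scale that is not given, and its median was 222 in the 3441 peaks (range 37 to 2665), 233 in enhancer-class peaks in zones and 190 in all peaks. It was between 211 and 233 at every distance from a zone. Members had a median width of 1004 bp, against 1060.5 bp in zones, and covered 3.95 Mb. Named for deltaC rather than WT in the authors' list were 64 (1.86%), against 15 (0.826%) of enhancer-class peaks in zones and 2.94% of all peaks.

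The highest scores were all at intergenic and intronic sites or, in 1 case, in a LINE repeat within a gene. The peak with the highest score (2665) was intergenic at chr2:62303783-62307966, 4.90 kb from a zone and 81.1 kb from B3GNT2, which builds polylactosamine chains. It had a deltaC signal of 1727 and a WT signal of 2992. Next came a pair of peaks in introns of TBCD, a tubulin folding cofactor. The first (chr17:82862357-82864697, intron 13 of 38) had a score of 1517, a deltaC signal of 349 and a WT signal of 1974. The second (chr17:82888651-82890665, intron 15 of 38) had a score of 1467, a deltaC signal of 365 and a WT signal of 2583. In both TBCD peaks deltaC was close to the upper quartile of all members (354), whereas at the intergenic peak on chromosome 2 both lines were far above their quartiles.

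The other 7 of the 10 highest scores were spread over 4 chromosomes. An intergenic peak 96.1 kb from VANGL1, a planar cell polarity gene, scored 1434 (deltaC 746, WT 1193). A peak in the last intron of TRAM2 scored 1417 (deltaC 848, WT 1643) and lay 5044 kb from a zone. Chromosome 13 held 3, one 389 kb from EFNB2, which encodes an ephrin ligand (score 1369), one in COL4A2, a basement membrane collagen chain (1193), and one 428 kb from DAOA (1177). The last of the 10 were in ARHGAP25 (1336) and in CAMTA1, a transcription activator (1193). Away from TBCD, these peaks had log2 deltaC over WT between -1.11 and -0.51. At the other end, the scores of 37 and 47 belonged to peaks near BDNF, LRRN3, MUC5AC and KLF14, and a peak near KITLG was among those with 54.

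Most of these peaks were over 50 kb from a zone, and some only just outside. The median distance was 169 kb, with quartiles of 37065 and 766946 bp. For peaks outside zones it was 267312 bp in the promoter class and 559619 bp in the class others. By median, members thus lay nearer to a zone than the other classes outside zones. Within 10 kb of a zone lay 330 (9.59%), within 50 kb 992 (28.8%), and beyond 1000 kb 717 (20.8%). The nearest to a zone were 18 bp away (29.6 kb from KRT17, a keratin gene), 35 bp (in LPCAT1, a phospholipid enzyme), 72 bp (in ERRFI1, an EGF receptor inhibitor), 102 bp (in PTP4A2, a phosphatase) and 113 bp (37.7 kb from ZNF706). On the other side of the threshold, the enhancer-class peaks with the smallest zone overlaps touched by 2 bp (near LOC124902420), 15 bp (in BIK), 41 bp (in TCF7L2, the Wnt pathway transcription factor), 43 bp (in RNF43, which removes Wnt receptors) and 88 bp (near MFNG). Log2 deltaC over WT was between -1.55 and -0.60 in the first 5 and between -2.04 and -0.24 in the second. The farthest were all on 18q, one in ATP9B at 20.7 Mb and 4 in MBP at 18.5 Mb.

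The deltaC line had less signal than WT at nearly all of these peaks, and less of a deficit than at enhancer-class peaks in zones. The median signal was 230 in deltaC and 417 in WT outside zones. In zones it was 200 in deltaC and 427 in WT. The median of log2((deltaC + 1)/(WT + 1)), the peak-by-peak ratio, was -0.91 outside zones (quartiles -1.23 and -0.60) and -1.11 in zones (quartiles -1.50 and -0.80), a difference of 0.20. It was -0.93 over all MTBP peaks. How the authors scaled the lines is not given in the sources used here, so the ratio is read against that of other peaks. Only 64 members (1.86%) were named for deltaC in the authors' list, and the rest for WT. Lower signal in deltaC at nearly all members is thus not independent of how the list was made. With only peaks named for WT, the difference between members and in-zone enhancer peaks was also 0.20.

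**Figure D1:**
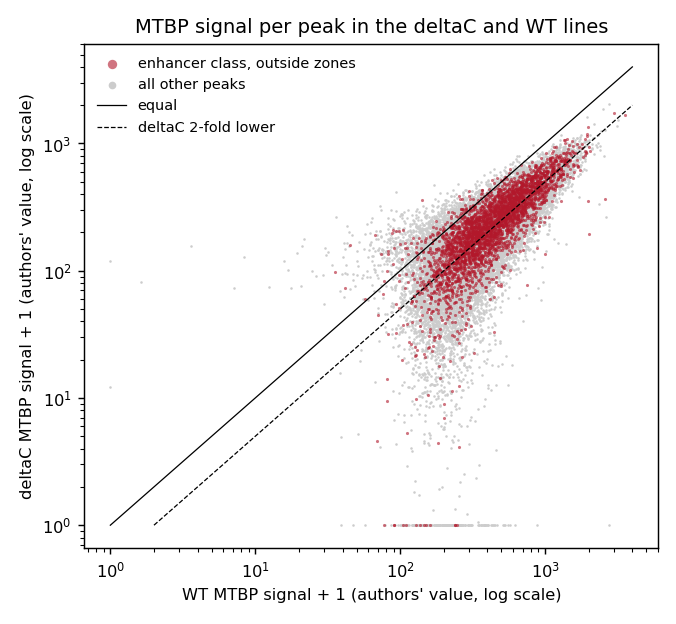
MTBP signal in the deltaC line (vertical axis) against the WT line (horizontal axis), both the authors' value plus 1 on log scales. Red points are the 3441 enhancer-class peaks outside zones and grey points all other peaks, most of them below the line of equal signal, and the 13 red points on the bottom edge are at 0 in deltaC.

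By count, 1420 of the 3441 peaks (41.3%) were lower in deltaC by over 2-fold, against 44.9% of all peaks and 58.3% of enhancer-class peaks in zones. Promoter-class peaks outside zones had 42.0% and the class others outside zones 39.2%, so the share is near the background and near that of other peaks outside zones. Higher in deltaC by over 2-fold were 9 (0.262%), against 0.419% of all peaks. With each ratio divided by the median ratio of all peaks, 175 members were lower and 88 higher by over 2-fold. No share of all peaks is given for that centring, so these counts are not set against a background. Any higher signal in deltaC than in WT was seen at 111 (3.23%), against 4.52% of all peaks and 27 (1.49%) of the enhancer-class peaks in zones. Outside zones the share was 3.50% in promoter-class peaks and 7.09% in the class others. The list holds 1 value a line, so these differences have no replicate check.

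The shift ran gradually with distance from a zone. The median of log2 deltaC over WT was -1.11 in zones, -1.04 up to 10 kb from one, -1.01 from 10 to 50 kb, -0.93 from 50 to 100 kb, -0.89 from 100 to 250 kb and -0.78 from 250 to 500 kb. Beyond that it was flat, at -0.82, -0.81 and -0.79 up to 1000 kb, up to 2000 kb and farther. The share lower by over 2-fold was 58.3% in zones, 54.8% up to 10 kb and 29.6% beyond 2000 kb. The median deltaC signal was 200 in zones, 199 up to 10 kb, 238 from 250 to 500 kb and 259 beyond 2000 kb, while that of WT stayed between 399 and 443 in all 9 bins. Within 50 kb, members were thus close to the in-zone peaks, and beyond 250 kb they were not. The other classes ran alike. Promoter-class medians were -1.17 in zones, -1.08 up to 10 kb and -0.80 beyond 2000 kb, and those of the class others were -1.10, -1.04 and -0.78.

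**Figure D2:**
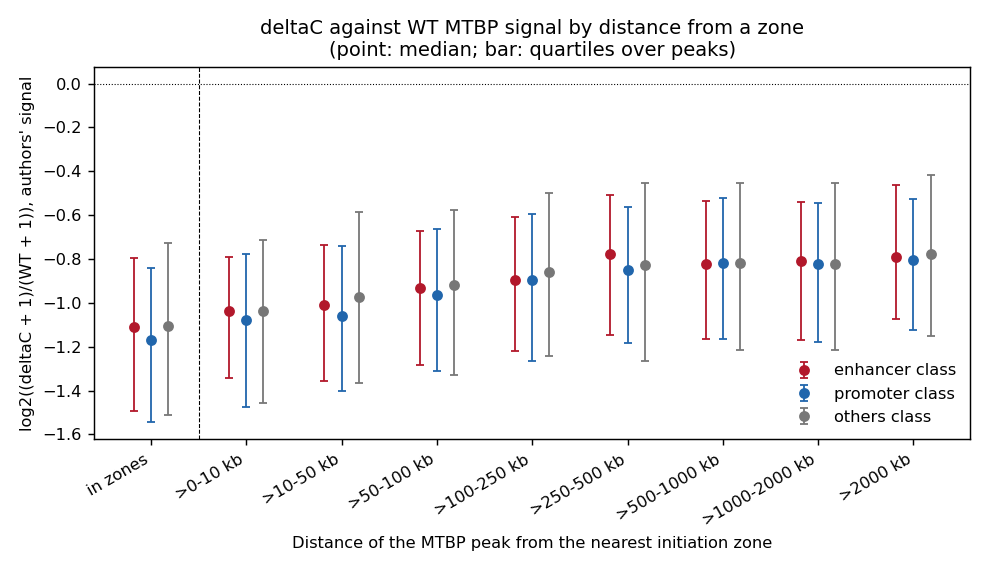
Median log2((deltaC + 1)/(WT + 1)) of the authors' signal (points, with bars for the quartiles over peaks) by distance from the nearest zone, for enhancer-class (red), promoter-class (blue) and other peaks (grey). Enhancer-class medians lie at -1.11 in zones and -0.79 beyond 2000 kb, and the quartile ranges of neighbouring bins overlap.

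Gene density moved along the same axis. The median number of coding gene ends within 500 kb of the peak was 29 in zones, 26 up to 10 kb and 9 beyond 2000 kb. In 4 bins cut at the quartiles of that number, from the fewest to the most gene ends, the median ratio was -0.83, -0.86, -0.95 and -1.09 in members, against -0.92, -0.99, -1.10 and -1.25 in enhancer-class peaks in zones. Members were higher by 0.09, 0.13, 0.15 and 0.16 within the bins, less than the 0.20 over all. In the same kind of bins by WT signal the differences were 0.19, 0.28, 0.23 and 0.16, and in those by H3K4me2 fold 0.25, 0.21, 0.15 and 0.22. The part that gene density has in the shift with distance was not tested.

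Each chromosome was also taken on its own. Members had a higher median ratio than in-zone enhancer peaks on all 22 autosomes, by 0.03 to 0.40. On X, with 26 members and 7 peaks in zones, it was the other way, with -1.06 outside and -0.65 in zones. The lowest member medians among the autosomes were on chromosomes 17 (-1.18) and 19 (-1.12), which had the most gene ends around members, with medians of 29 and 61. The share of the class that lay outside zones was lowest on chromosome 19 (41.7%) and highest on chromosome 13 (92.9%), where 92 peaks were outside and 7 in zones.

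**Figure D3:**
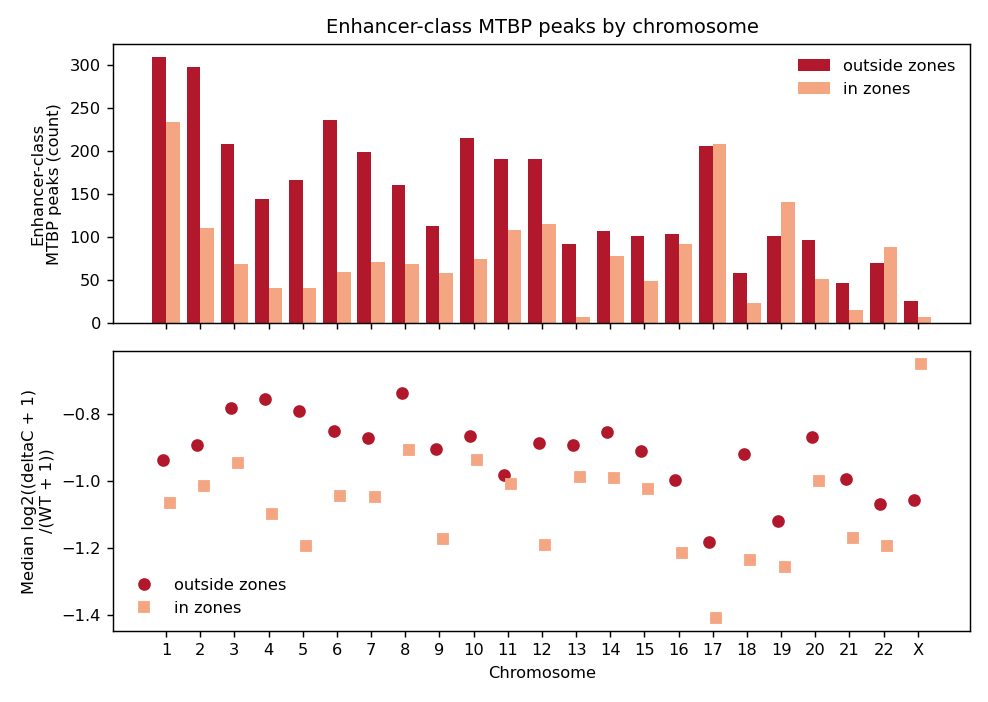
Upper panel, the number of enhancer-class peaks outside zones (dark red) and in zones (light) on each chromosome, with 309 and 234 on chromosome 1. Lower panel, the median log2((deltaC + 1)/(WT + 1)) of both, with circles above squares on every autosome and below on X.

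The extremes of the ratio were few and local. Among members of at least median signal, the lowest ratios were in TBCD introns (-3.35, -3.29, -2.89 and -2.82) and in QTGAL (-2.54), all near the end of 17q. From 80 Mb on chromosome 17 to its end there were 25 members, with a median ratio of -2.25, and 24 of them were lower in deltaC by over 2-fold. All 141 MTBP peaks of that stretch had a median of -2.00, so the low ratios there were not limited to members. The copy number of this stretch in the lines was not tested.

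The highest ratios at that signal were 0.50 in ARHGAP18, 0.39 in ATP8B1 (a phospholipid flippase), 0.28 near UACA, 0.26 near OXR1 and 0.23 in SAMD5. The ARHGAP18 peak (chr6:129663258-129664871) had a deltaC signal of 419 and a WT signal of 295. The 9 members past 2-fold higher in deltaC were all among the 64 named for deltaC, so their direction is not independent of that naming. They were all dim in WT, with 34.3 to 141. The largest of these, 62.1 kb from the growth factor gene FGF1, had 157 in deltaC and 44.0 in WT and lacked H3K4me2. The others were in ADAMTSL2, ATP9A, RBPMS and DOCK9 or nearest to IFT27, PTPRC, NR2F1 and FAM171A1. Signal was listed at 0 in deltaC at 13 of the 3441 members, against 186 of all 29848 peaks and 15 of the 1816 enhancer-class peaks in zones. Such values were thus not particular to members. The WT signals of the 13 members ranged from 76.0 to 244. They included introns of CTNNBIP1 (an inhibitor of beta-catenin), TBCD, ZC3H12A, BMP1, JAK3 and CEMIP.

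Members lay inside genes more often than the same class in zones. The centre of 2197 (63.8%) was in a protein-coding gene, against 39.2% of enhancer-class peaks in zones and 54.9% of all peaks. The other classes ran the same way. In the class others the share was 55.2% outside zones and 35.3% in zones, and in the promoter class 59.8% and 54.7%. Another 353 were only in a lncRNA gene, and 891 (25.9%) were in neither, against 49.2% in zones. In the authors' annotation, 1579 (45.9%) were intronic, against 26.2% in zones, and 771 (22.4%) intergenic, against 39.1%. Over all peaks 28.0% were intronic and 20.7% intergenic. The share in coding genes was 70.0% up to 10 kb from a zone, 75.2% from 10 to 50 kb, 73.4% up to 100 kb, 69.4% up to 250 kb and 57.5% up to 500 kb. Beyond that it was level, at 51.1%, 50.3% and 51.8%, and in every bin it was above the 39.2% in zones.

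**Figure D4:**
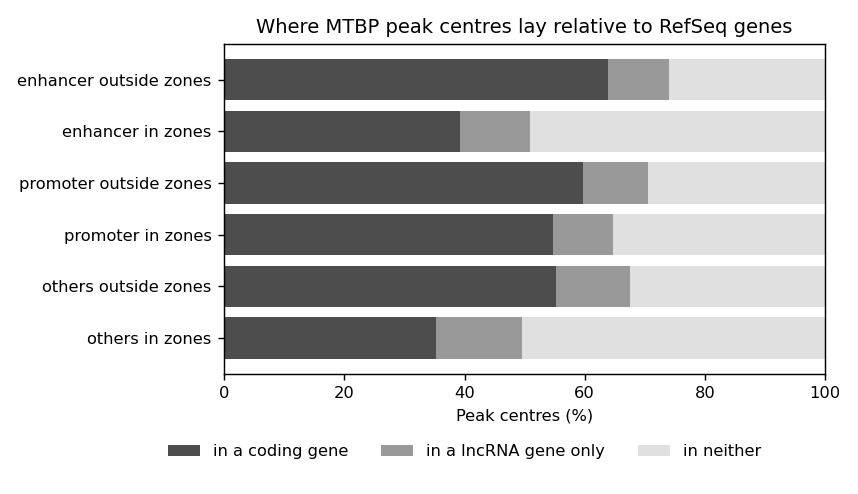
Share of MTBP peak centres (horizontal axis, percent) inside a RefSeq protein-coding gene (dark), only in a lncRNA gene (mid grey) or in neither (light), for the 3 classes outside and in zones. Of the enhancer class, 63.8% outside zones and 39.2% in zones were in a coding gene.

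By the authors' distances they were also farther from gene starts. The listed start was a median of 15022 bp away, against 8453.5 bp in zones. It need not be the nearest start in RefSeq, since 78 members hold a RefSeq start window. The member at PIK3C2A is one of these and has a listed distance of 14711 bp. Over 50 kb away were 421 (12.2%), against 3.03% in zones and 9.55% of all peaks. The smallest distance was 2004 bp, and no peak of the class in zones was nearer than 2002 bp. By the listed distances the class thus begins at about 2 kb. Around members there was a median of 16 coding gene ends within 500 kb, against 29 in zones. The class others ran alike, with a median start distance of 19833.5 bp outside zones and 10942.5 bp in zones. Its median gene ends were 11 and 21, and those of the promoter class 18 and 37. In total 2062 coding genes were the nearest to at least 1 member.

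Repeats made up a small part of the sites. By the authors' annotation 213 (6.19%) were in LINEs and 184 (5.35%) in LTR elements, against 4.74% and 3.19% of enhancer-class peaks in zones. Over all peaks these shares were 6.23% and 6.05%, so members were not above the background. The class others outside zones had 10.2% and 9.86%. SINEs held 229 (6.66%), against 8.48% in zones and 5.22% of all peaks. Members in LTR elements had a median ratio of -0.82 and those in SINEs one of -0.91, close to the -0.92 of intronic members.

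Most members stood alone, and the rest lay in groups. With members linked at gaps of at most 12500 bp, 2235 (65.0%) stood alone, and 1206 (35.0%) formed 495 clusters of 2 or more. Of the clusters, 355 had 2 members, 93 had 3, 35 had 4 and 12 had 5 or more. H3K4me2 peaks were wider in larger clusters, with median widths of 4593 bp in clusters of 4 or more, 3223 bp in those of 2 or 3 and 2175 bp at members alone. The median ratio was -1.002, -0.94 and -0.88 in the same order. Median scores were 211, 211 and 222, so larger clusters did not have higher scores. The widths are medians over members, so an H3K4me2 peak shared by several members counts for each, and 504 members shared one. Members under the same H3K4me2 peak also lie close together, so the trend in width is in part set by the cluster rule.

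The largest cluster was in ARHGAP18, with 10 members over 57.1 kb (chr6:129637389-129694483), 15.6 kb from a zone. Its deltaC signals ranged from 84.6 to 419 and its WT signals from 136 to 628, with 1 member higher in deltaC. Next, a pair of clusters of 8 lay at the lncRNA gene LINC-PINT on chromosome 7, with median ratios of -0.84 (chr7:130986747-131016945) and -0.73 (chr7:130887238-130919755, where LINC00513 overlaps). The cluster at the lncRNA gene LINC00673, in part intergenic, had 7 members and lay 5.73 kb from a zone, with a median ratio of -0.87. The cluster at SLC2A1, the glucose transporter GLUT1, had 7 members, of which 5 lay in the gene, with a median of -1.32. An intergenic peak beside the gene, the only member there named for deltaC, went the other way, at 0.82 (deltaC 72.7, WT 40.9). TBCD held 6 with a median of -3.09 and scores from 78 to 1517.

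The remaining clusters of the 10 with most members, with ties broken by summed score, were at UBE2H, a ubiquitin-conjugating enzyme (6, of which 4 in the gene, median -1.16), at AHNAK and EEF1G (5, -1.35), in SH3BP4 (5, -1.13) and in SYNJ2, an inositol phosphatase (5, -0.92). Also with 5 members but lower summed scores were clusters at BAIAP2 (-1.99) and ATP9A (-0.71). In SH3BP4, the cluster at chr2:234963478-234982412 held 2 of the windows printed above, in peaks with deltaC signals of 315 and 291 and WT signals of 851 and 636. The third SH3BP4 window lay in a peak outside that cluster, with 475 in deltaC and 923 in WT.

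**Figure D5:**
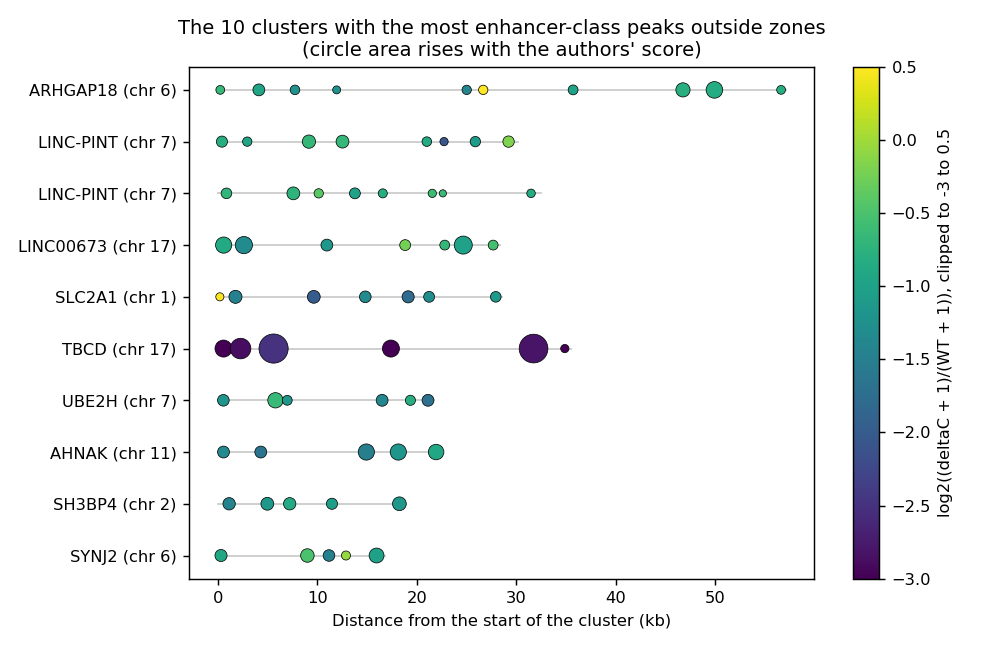
The 10 clusters with the most members, each on a line by distance in kb from its start. Each circle is a peak, its area growing with the authors' score and its colour giving log2((deltaC + 1)/(WT + 1)), and all 6 peaks of TBCD are dark, at -2.50 or below.

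Genes near members were read from lists of pathways and cell types. Over all 19974 protein-coding genes, 27.2% had a member within 100 kb of either end. Of the 206 different list genes, 78 did. The lists above that share by the most were the EGF receptor pathway (13 of 21) and the AP-1 and immediate early factors (11 of 19). Enhancer-class peaks in zones lay within 100 kb of 10 (47.6%) and 12 (63.2%) of these genes, against 19.6% of all coding genes. Nearness to these 2 lists was thus not particular to members. Near EGFR itself lay 6 members, with ratios from -1.27 to -0.02 and no enhancer-class peak in a zone. PHLDA1 had 5, the ligand genes EREG and AREG 4 and 2, and the Ras inhibitor SPRED2 3, one of them with a score of 992. Among the AP-1 list, MYC had 3, with ratios from -1.10 to -0.82, and ATF3, FOSB, IER2 and JUN had 2 each. JUN and ATF3 had no enhancer-class peak in a zone within 100 kb, and FOSB had 4.

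In the Wnt list 9 of 19 genes had a member, led by ZNRF3, which removes Wnt receptors (5), the cyclin gene CCND1 (4), RNF43 (4), MYC and TCF7L2 (3 each). In the TGF-beta and BMP list it was 8 of 20, led by ID1, SMAD3 and TGFBR2 (5 each). Members near SMAD3, a signal transducer, had a median ratio of -1.53 and those near the receptor gene TGFBR2 one of -0.73. In the YAP and TEAD list it was 6 of 16, led by TEAD1 and YAP1 (4 each) and AXL (3). These counts have no test, and genes in each list differ in length and in neighbours, so none of the lists is called different from all genes.

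The genes of intestinal identity were near the background. Of 22 intestinal epithelium genes, 7 (31.8%) had a member within 100 kb, led by KRT20 (4) and MUC13 (2), with CDH1, CDH17 and LGALS4 at 1. Of the same 22 genes, 14 (63.6%) had an enhancer-class peak in a zone within 100 kb, against 19.6% of all coding genes, and 14 touched a zone, against 24.5%. Of 24 intestinal transcription factor genes, 7 had a member, with 2 each near KLF5 and SOX9 and 1 each near CDX1, EHF and GATA4. Of 28 replication initiation genes, 8 (28.6%) had one, with 3 each near CDC6 (loads MCM) and GINS2 (a helicase subunit) and 2 each near MCM5 and RECQL4, and 1 of the 28 (3.57%) had an enhancer-class peak in a zone, against the same 19.6%. Markers of other cell types had members at 1 of 10 hepatocyte, 4 of 10 neuron, 2 of 10 blood and 3 of 10 muscle genes, with 5 members near GRIN2B.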

How the data were processed

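MTBP binding, H3K4me2 and replication initiation were measured in DLD-1 lines by CUT&RUN and EdU-seq. Reads were processed with Trim Galore, Bowtie2, MACS2 and HOMER on hg38, per the submitters' processing notes. Whether replicates were pooled is, like versions and parameters, not given in the sources used here.

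Per the file headers, the MTBP list gives the authors' score of each peak, 1 signal value for WT and 1 for deltaC, and a class, annotation and distance to a start site. The deposited zone list gives an average score. The deposited H3K4me2 list has a score, a fold enrichment ratio over background and −log10 p-values, which were recognised from the peak caller's column order. Library depth is unknown, so counting error is not given. No p-value is given, as a planned count model could not be run on 1 value a line. The IgG, untagged and G1-arrested libraries were not analysed here.

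From these, log2((deltaC + 1)/(WT + 1)) was computed with a pseudocount of 1, and called at over 2-fold. Peaks on Y (10) were left out. Overlaps needed at least 1 bp, and clusters gaps of at most 12500 bp. Genes, their ends and promoter windows came from RefSeq for GRCh38.p14, and gene groups used a window of 100 kb. Of H3K4me2 peaks, the strongest overlapping one was used. Scripts ran in Python 3.11.15 with numpy 2.4.6 and pandas 2.3.3, and the counting steps were tested on simulated data.

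Named were the 10 members of highest and 5 of lowest score, the 5 highest and 5 lowest ratios among members of at least median signal, the 5 nearest to and 5 farthest from a zone, the 5 smallest zone overlaps, the 5 highest-scoring members without H3K4me2, the 10 largest clusters (ties by summed score), and up to 5 genes a list. Members at 0 or past 2-fold higher in deltaC, promoter windows, host genes, repeats and the chromosome 17 stretch were added after values were seen. The members and gene lists were chosen with earlier results of these data known. Alternatives changed the zone overlap and width, score minimums, pseudocount, centring, gaps and windows.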

Additional observations from a re-analysis of the deposited data

How the results depend on the processing

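Keeping MTBP peaks at or above the median score left 2085 members in place of 3441, and widening zones by 10 and 50 kb left 3111 and 2449. With ratios centred on the median of all peaks, 175 members were lower and 88 higher in deltaC by over 2-fold, in place of 1420 and 9, so the split between directions rests on the authors' unstated scaling. The centred counts have no share over all peaks beside them. Keeping H3K4me2 peaks at or above the median score, 88.3% of members overlapped one, and keeping zones at or above theirs the median distance was 481 kb. Within 20 kb and 500 kb of a gene end, 30 and 154 of the list genes had a member, in place of 78. Alternatives for the difference of 0.20 between members and in-zone enhancer peaks were chosen after seeing the data. It was 0.31 for members over 250 kb from a zone, 0.0917 for those within 50 kb and 0.0925 in the bin with the fewest gene ends, and 0.13 to 0.21 under the other 10. The median ratio of members stayed between -0.92 and -0.86 under its 6 alternatives. No paired analysis was possible because the list holds 1 value a line, and for the same reason no library could be left out. Depth is unknown, so low signals and the values at 0 in deltaC have no stated precision.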

Other observations

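Some genes held the centres of many members, among genes picked after their values were seen. RAD51B, a homologous recombination gene of 863 kb, held 18, with scores from 86 to 472 and ratios from -1.36 to 0.01, beside 6 enhancer-class peaks in zones. ARHGAP18, SH3BP4 and VTI1A held 10 each, ATXN1 held 9, and MSI2, MYO1E and TEAD1 held 8 each. The receptor genes EGFR and MET held 6 each, all in genes with no enhancer-class peak in a zone. MET had the higher median ratio (-0.46, from -0.95 to 0.14), and EGFR one of -0.98 (from -1.27 to -0.02). RUNX1, a transcription factor gene, held 6 with a median of -1.37. Counts were not scaled by gene length.

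A stretch of 2p from 38 to 72 Mb held 77 members with a median score of 396, against 222 in all members, and a median ratio of -0.81. The 675 MTBP peaks there had a median score of 266, against 190 in all peaks. Near the end of 13q, 27 members had a median score of 336 and lay a median of 1149 kb from a zone. All 109 MTBP peaks of that stretch had a median score of 233, so scores there were above the 190 of all peaks too. Copy number was not tested in either stretch.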
